A study of Mus musculus with 5 samples.

Results

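The cadherin superfamily genes described here are the classical and related cadherins (Cdh followed by a number), the protocadherins (Pcdh) and the 7-pass cadherins Celsr1, Celsr2 and Celsr3. A gene was a member if a probe set with a single gene symbol named it, and Cdh5, the endothelial cadherin, was left out. By this rule 58 of 18193 named genes on the array were members, and each gene was read from its brightest probe set (highest mean log2 signal). Of the 58, 30 were bright enough to be tested, with a mean above the median of all values (4.80 log2), and 28 were not. Tissue came from the ventricular and subventricular zones of the rostral medial ganglionic eminence (MGE) of mouse embryos at E15.5, the embryonic day of collection. The MGE lies in the ventral forebrain and produces many of the interneurons of the cortex. There was 1 array of wild type (WT) tissue, 2 arrays of tissue from Dlx1/2 mutants, 1 array of primary neuronal cultures from WT zones and 1 of cultures from mutant zones. Dlx1 and Dlx2 are homeodomain transcription factors that drive differentiation and tangential migration of interneurons. The labels give neither the time in culture nor the number of embryos behind each array. Whether the 2 mutant tissue arrays stand for separate animals is not stated, so each p-value measures the spread of these arrays alone, and that spread may be technical.

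Cadherins are calcium-dependent adhesion proteins with repeated extracellular cadherin domains. Classical cadherins bind their own kind on the next cell and hold actin through the catenins. Type I members such as N-cadherin (Cdh2) give strong adhesion in the neuroepithelium, while type II members are expressed in patches that mark brain regions and nuclei. Protocadherins adhere weakly. The clustered protocadherin genes lie in tandem arrays and give single neurons their own surface identity, whereas the non-clustered ones lie alone and act in axon growth, migration and synapse formation. The Celsr proteins are the vertebrate relatives of Drosophila flamingo and act in planar cell polarity and axon tract formation.

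The genotype labels were borne out by Dlx1, whose deposited signal was 3278 in WT tissue and 603 in WT culture against 0.921 to 2.80 in the 3 mutant arrays. All 8 MGE and ventral forebrain markers with a named probe set lay above the floor in WT tissue, where their summed normalized signal was 9137. It was 2110 and 2134 on the mutant tissue arrays, and 4125 (WT) and 1589 (mutant) in culture. The list holds Dlx1 and Dlx2 themselves, so part of this fall was fixed by the genotype. In tissue 6 of the 8 passed and fell. Nkx2-1 went the other way, with 5.36 in WT and 5.90 and 6.23 in mutant tissue. Gad1 did not pass (−0.21, limma, adjusted p = 0.24). Several other marker lists moved with genotype or preparation. In mutant tissue 4 of 4 tested oligodendrocyte precursor markers were higher, with a summed signal of 2202 to 2254 against 1159 in WT tissue, and the same sum was 1216 in mutant against 615 in WT culture. The remaining listed marker, Cspg4, was not tested and read 4.99 in WT and 2.36 and 3.48 in mutant tissue. In culture Pdgfra, Olig1 and Olig2 were higher in mutant, and Sox10 (−0.93) and Cspg4 (−0.83) were lower. In mutant tissue 3 of 5 neuron markers and 3 of 6 progenitor markers were higher and 5 of 5 cell cycle genes were lower, where 8.59% of all tested genes were higher and 6.70% lower. Pallial neuron markers summed to 96.0 in WT and to 251 and 239 in mutant tissue, and the 1 of them tested, Neurod2, rose by 2.31 ± 0.46 (limma, adjusted p = 0.0048). The untested ones went both ways in tissue. Neurod6 (3.87), Slc17a6 (3.13), Eomes (1.64) and Slc17a7 (0.78) were higher in mutant, and Tbr1 (−1.95) and Emx1 (−2.45) were lower. Choroid plexus markers summed to 205 in WT and to 410 and 392 in mutant tissue, but their mean log2 was 4.76, 4.49 and 4.83. Otx2 rose from 7.25 to 8.58 and 8.44, and the dim Kl read 2.99, 3.29 and 3.86 in the same order. Ttr fell from 3.97 to the floor in both mutant arrays, and Folr1 fell from 4.83 to 3.72 and 4.66. Astrocyte markers summed to 1204 to 1376 in tissue, and to 2507 (WT) and 3608 (mutant) in culture. Mesenchyme and pericyte markers, of which 0 of 5 passed in tissue, summed to 833 and 888 in mutant and 969 in WT tissue. In culture they summed to 580 (WT) and 565 (mutant) and went both ways. For preparation 1 of 5 was higher in culture, Col1a2 (2.30), and 2 were lower, Rgs5 (−2.74) and Kcnj8 (−3.68). The share of all tested genes was 19.6% higher and 19.2% lower. The untested Col1a1 read 2.37 in WT tissue and 5.74 (WT) and 4.66 (mutant) in culture. Between preparations, red blood cell genes summed to 8921 to 9706 in tissue and to 16.8 and 15.4 in culture, and endothelial markers to 926 to 1109 in tissue and to 162 and 237 in culture. Of the 8 endothelial markers 0 lay at the floor in tissue, and 3 did so in WT and 2 in mutant culture. The part of such shifts in cell makeup in the cadherin results was not tested, and in these bulk samples fewer cells of a type and less RNA per cell cannot be told apart.

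Non-clustered protocadherins held most of the members that differed with genotype. The 250 bases before the annotated start of 4 of them are shown because 3 of these genes rose in mutant tissue and the genotype difference of Pcdh8 was unlike in culture and tissue. The sequences are from RefSeq (GRCm38.p6), 5′ to 3′ on the strand of the gene. Capitals mark the CCAAT box AGCCAAT, which reads ATTGGCT here because it lies on the opposite strand.
Pcdh17 (chr14:84443313-84443562, plus strand): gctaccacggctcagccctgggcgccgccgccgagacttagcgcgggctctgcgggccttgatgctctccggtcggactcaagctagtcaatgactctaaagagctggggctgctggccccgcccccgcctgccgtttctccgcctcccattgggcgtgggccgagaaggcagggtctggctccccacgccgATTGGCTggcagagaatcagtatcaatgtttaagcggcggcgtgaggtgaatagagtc
Pcdh18 (chr3:49757317-49757566, minus strand): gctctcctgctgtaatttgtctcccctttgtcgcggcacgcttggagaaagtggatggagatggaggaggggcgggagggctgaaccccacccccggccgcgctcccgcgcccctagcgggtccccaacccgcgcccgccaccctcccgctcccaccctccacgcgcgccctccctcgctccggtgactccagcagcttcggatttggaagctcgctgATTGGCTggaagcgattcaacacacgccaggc
Pcdh19 (chrX:133688994-133689243, minus strand): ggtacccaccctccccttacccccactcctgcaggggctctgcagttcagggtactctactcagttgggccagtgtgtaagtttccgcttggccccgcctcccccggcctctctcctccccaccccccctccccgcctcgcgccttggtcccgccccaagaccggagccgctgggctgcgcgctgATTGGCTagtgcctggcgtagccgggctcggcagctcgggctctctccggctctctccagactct
Pcdh8 (chr14:79771313-79771562, minus strand): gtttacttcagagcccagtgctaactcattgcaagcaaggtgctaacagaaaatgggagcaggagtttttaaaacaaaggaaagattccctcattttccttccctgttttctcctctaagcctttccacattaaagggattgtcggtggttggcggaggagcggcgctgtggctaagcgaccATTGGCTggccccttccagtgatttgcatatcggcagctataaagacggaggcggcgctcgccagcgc

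Each of these 4 stretches held AGCCAAT on 1 strand, its first base 58 bases before the start in Pcdh17, 32 in Pcdh18, 65 in Pcdh19 and 68 in Pcdh8. The motif was searched after the sequences had been read. On either strand it stood in 7.25% of the 32851 promoter entries over the same 250 bases. Of the 22 members outside chromosome 18 that had an entry, 7 held it. These 7 include the 4 read before the search, so their number cannot be set against the share of all entries. The others were Cdh9, Cdh18 and Cdh20, all too dim to be tested. CG dinucleotides numbered 21 in Pcdh17, 23 in Pcdh18, 16 in Pcdh19 and 11 in Pcdh8, against a median of 6 over all entries and of 11 over the 25 entries of members. Tested members that did not pass in tissue went both ways. Pcdh10 (22), Cdh8 (20), Pcdh9 (18), Celsr3 (17) and Cdh22 (30) had like or higher numbers. Fewer stood in Pcdh7 (7), Cdh6 (6) and Cdh10 (2), and the entries of Cdh7 held from 3 to 17. Celsr2, which also rose in mutant tissue, had an entry with 32 CG dinucleotides and without AGCCAAT. For Pcdh11x, the member with the largest rise, no entry was found. Pcdh8 alone of the 4 had TATAAA on its own strand, beginning 30 bases before the start (7.59% of all entries hold it). TAATT, a core recognised by many homeodomain proteins, was searched on both strands and found in Pcdh18 at 238 bases before the start, and in 25% of all entries. These matches are descriptions of letters and say nothing of what binds there.

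Across the 30 tested members, 7 rose in mutant tissue and 0 fell (limma, adjusted p below 0.05 over all genes tested). That is 23.3% of the members higher, against a background of 8.59% of all tested genes higher and 6.70% lower. At an unadjusted p under 0.05, 10 members were higher and 1 was lower. Of all 11063 tested genes, 1754 were higher and 1455 lower at that unadjusted threshold. The median difference of the members was 0.37 log2, against 0.001 over all genes tested, and 25 of the 30 lay above 0. All these differences share the single WT tissue array, so their signs are not independent. The 7 were Pcdh11x, Pcdh18, Pcdh19, Pcdh17, Celsr2, Cdh11 and Cdh2. By class, 4 of 8 non-clustered protocadherins, 1 of 2 type I and 1 of 6 type II cadherins, 1 of 3 Celsr genes and 0 of 10 clustered protocadherins passed. All 7 calls were lost when dim genes were also tested and when the variance prior had no intensity trend, and 5 of them, all but Pcdh11x and Pcdh19, when a gene's probe sets were averaged.

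**Figure D1:**
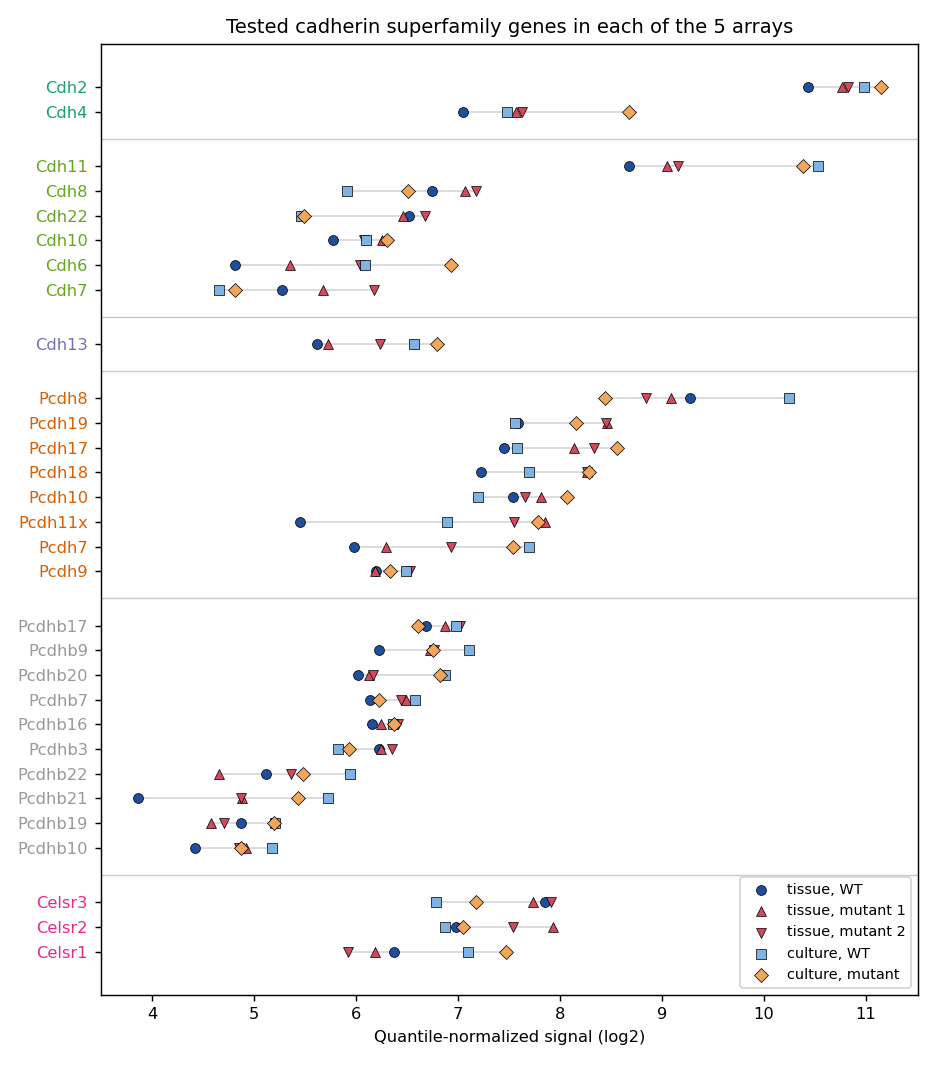
Quantile-normalized log2 signal (x axis) of the 30 tested cadherin superfamily genes in each of the 5 arrays, 1 point per array, with genes grouped from top to bottom as type I, type II, atypical cadherins, non-clustered protocadherins, clustered protocadherins and Celsr genes. For Pcdh11x the WT tissue array (5.45) lies apart from both mutant tissue arrays (7.85 and 7.55), and for Pcdh8 the WT culture array is the highest (10.24) and the mutant culture array the lowest (8.44).

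Pcdh11x, an X-linked protocadherin of brain, had the largest tissue difference of the 30 tested members. Its normalized log2 level was 5.45 in the WT and 7.85 and 7.55 in the mutant tissue arrays, against 6.89 (WT) and 7.79 (mutant) in culture. Both mutant tissue arrays lay above the WT tissue array by at least 2.10, while the 2 mutant arrays differed from each other by 0.30. The rise in tissue was 2.25 ± 0.22 (SE; 4.75-fold, adjusted p = 3.6e-05). In culture the mutant array was 0.89 higher, and the culture difference was smaller than the tissue difference by the limma interaction test (−1.35 ± 0.32, adjusted p = 0.045). WT culture stood 1.44 above WT tissue. Its other probe set rose in tissue too, by 1.30 (adjusted p = 0.014 with every probe set tested on its own), but for that probe set the interaction was −0.58 (adjusted p = 0.49).

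Pcdh18, a protocadherin of the delta2 type, read 7.23 in the WT and 8.27 and 8.26 in the mutant tissue arrays, against 7.70 (WT) and 8.29 (mutant) in culture. All 3 mutant arrays lay above both WT arrays. It rose in tissue by 1.04 ± 0.15 (2.05-fold, adjusted p = 0.00062), and its second probe set above the filter rose by 1.55 (adjusted p = 0.013). Pcdh19, the X-linked delta2 protocadherin whose human counterpart is an epilepsy gene, read 7.59 in the WT and 8.46 and 8.45 in the mutant tissue arrays, against 7.56 (WT) and 8.16 (mutant) in culture. Again the 3 mutant arrays lay above both WT arrays. The rise in tissue was 0.87 ± 0.14 (1.82-fold, adjusted p = 0.0013), and its 2 other probe sets rose by 0.84 and 1.06 (adjusted p = 0.024 and 0.039). Pcdh17, a delta2 protocadherin of growing axons and synapses, read 7.45 in the WT and 8.14 and 8.33 in the mutant tissue arrays, against 7.58 (WT) and 8.56 (mutant) in culture. The rise in tissue was 0.79 ± 0.16 (1.72-fold, adjusted p = 0.0050). Its other probe set differed by 0.37 in tissue (adjusted p = 0.31) and by 1.69 in culture.

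Pcdh11x and Pcdh19 are X-linked, and sex-linked genes moved with genotype too. Xist, expressed from the inactive X chromosome, read 9.32 in the WT and 6.70 and 7.09 in the mutant tissue arrays, against 8.35 (WT) and 6.64 (mutant) in culture. The Y-linked Kdm5d read 5.52, 7.29, 6.98, 5.08 and 6.19 in the same order. Eif2s3y, also Y-linked, read 5.12 in the WT and 7.41 and 7.44 in the mutant tissue arrays, against 7.18 (WT) and 7.72 (mutant) in culture. In WT culture it was thus high where Kdm5d was low, and its interaction was −1.77 ± 0.31 (limma, adjusted p = 0.013). The part of the embryos' sex in the differences of Pcdh11x and Pcdh19 was not tested.

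Across both preparations, in a model with a term for preparation over the 5 arrays, 2 of 30 members rose and 0 fell, while 0.814% of all tested genes were higher and 0.253% lower. They were Pcdh17 (0.87 ± 0.14, adjusted p = 0.038) and Pcdh11x (1.67 ± 0.30, 3.18-fold, adjusted p = 0.046). At an unadjusted p under 0.05, 10 members were higher and 1 was lower, against 907 and 536 of all 11063 tested genes. Pcdh18 (0.84 ± 0.16, adjusted p = 0.052) and Pcdh19 (0.75 ± 0.14, adjusted p = 0.054) missed the threshold, and both passed with the deposited scaling kept and with a pseudocount in place of the floor. Both calls were lost without either one of the mutant tissue arrays. They were also lost when probe sets were averaged, when dim genes were tested and without the intensity trend.

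**Figure D2:**
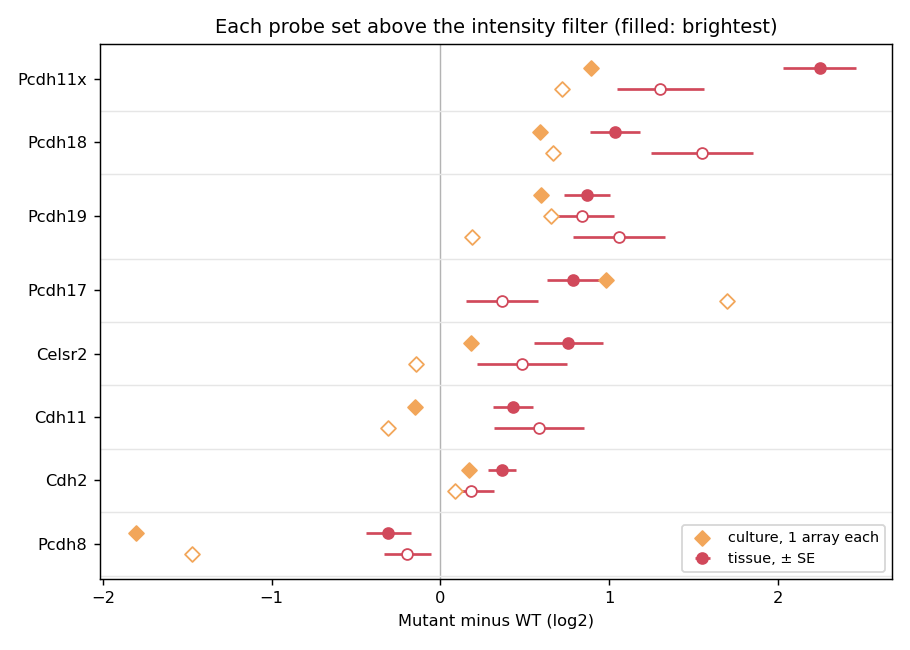
Difference between mutant and WT (log2, x axis) for each probe set above the intensity filter of the 7 members that rose in tissue and of Pcdh8, with circles for tissue (bars are ± SE of the limma fit) and diamonds for culture (1 array each, no error). Filled symbols are the brightest probe set. In tissue each probe set of the first 7 genes lies above 0, and both of Pcdh8 lie below 0 in culture, at −1.80 and −1.47.

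Pcdh8 (arcadlin or paraxial protocadherin), which acts in cell sorting in the early embryo and at synapses, went the other way. It read 9.28 in the WT and 9.09 and 8.85 in the mutant tissue arrays, against 10.24 (WT) and 8.44 (mutant) in culture. The deposited signals in culture were 1243 for WT and 339 for mutant. In tissue the mutant arrays were lower by 0.31 ± 0.13 and the difference did not pass (adjusted p = 0.13), whereas in culture the mutant array was 3.49-fold lower. The genotype differences in the preparations differed from each other by −1.49 ± 0.19 (limma interaction test, adjusted p = 0.0042), and the second probe set gave −1.27 (adjusted p = 0.029). Of the 30 members, 0 had a higher and 2 a lower interaction, Pcdh8 and Pcdh11x, where 2.21% of all tested genes were higher and 2.27% lower. At an unadjusted p under 0.05, 2 members were higher and 4 lower, against 1033 and 1135 of all 11063 tested genes. Both calls were lost when probe sets were averaged, with dim genes tested and without the intensity trend.

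Of the 30 tested members, Pcdh8 and Cdh4 differed by at least 2-fold between the culture arrays, Pcdh8 lower and Cdh4 higher. In all tested genes 1.85% were higher and 1.83% lower by this rule, which with 1 array against 1 is no test. In the same pair of arrays Pcdh10 (OL-protocadherin, which guides striatal and thalamocortical axons) was 0.88 higher in the mutant, and in tissue it differed by 0.19 ± 0.17 (adjusted p = 0.48). Pcdh7 and Pcdh9, of the delta1 type, had tissue differences of 0.64 ± 0.29 (adjusted p = 0.17) and 0.17 ± 0.27 (adjusted p = 0.73).

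**Figure D3:**
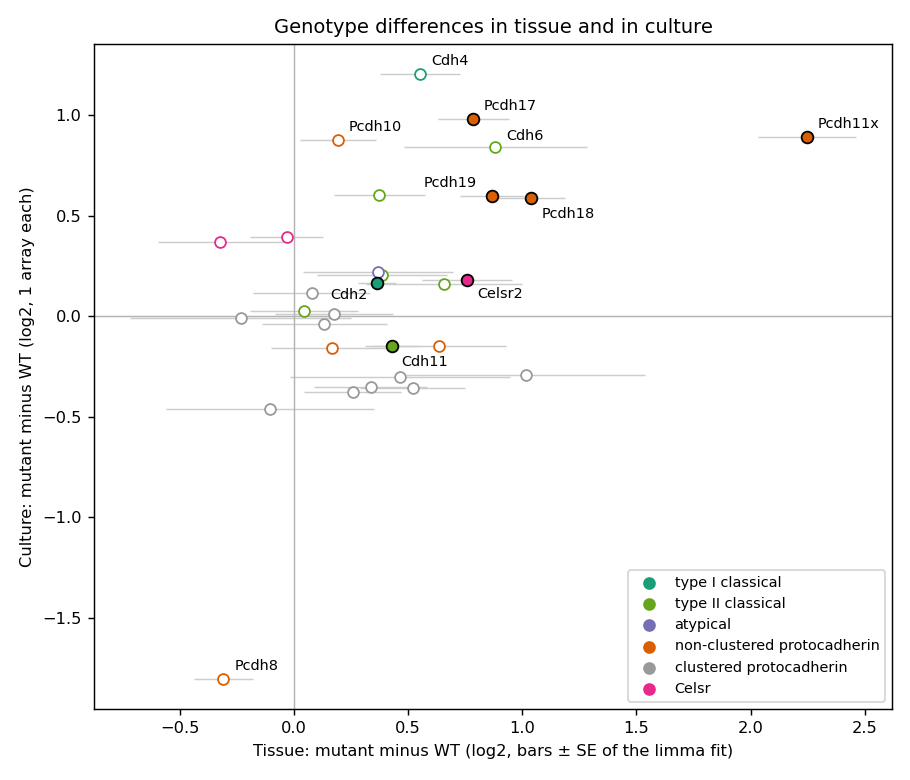
Mutant minus WT difference (log2) of each tested member in tissue (x axis, bars ± SE of the limma fit) and in culture (y axis, 1 array each). Filled points passed the threshold in tissue; 7 points do, all to the right of 0, and Pcdh8 lies alone at the bottom with −0.31 in tissue and −1.80 in culture.

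Among the classical cadherins, small differences in tissue passed the test. Cdh2, N-cadherin, the main adherens junction cadherin of neural progenitors and neurons, read 10.43 in the WT and 10.77 and 10.83 in the mutant tissue arrays, against 10.99 (WT) and 11.15 (mutant) in culture. It rose in mutant tissue by 0.36 ± 0.08 (1.29-fold, adjusted p = 0.012). Its second probe set differed by 0.18 (adjusted p = 0.42). Cdh4, R-cadherin, the other tested type I gene, read 7.05 in the WT and 7.57 and 7.63 in the mutant tissue arrays, against 7.48 (WT) and 8.68 (mutant) in culture. The tissue difference of 0.55 ± 0.17 did not reach the threshold (adjusted p = 0.052; it was 0.020 on the scaling as deposited), and in culture the mutant array was 2.30-fold higher. Its second probe set above the filter differed by 0.18 in tissue and 0.65 in culture.

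All 6 tested type II cadherins had tissue differences above 0, from 0.04 in Cdh22 to 0.88 in Cdh6, which share the single WT tissue array, and 1 passed. Cdh11 (OB-cadherin), known from mesenchyme and also expressed in brain, read 8.68 in the WT and 9.05 and 9.16 in the mutant tissue arrays, against 10.54 (WT) and 10.39 (mutant) in culture. It rose in mutant tissue by 0.43 ± 0.12 (1.35-fold, adjusted p = 0.029), and its other probe set differed by 0.58 (adjusted p = 0.20). In culture the mutant array was 0.15 lower than WT, and the interaction was −0.58 ± 0.16 (adjusted p = 0.072; it was 0.030 on the scaling as deposited). Cdh8, a marker of patterned forebrain regions, read 6.75 in the WT and 7.07 and 7.17 in the mutant tissue arrays, against 5.91 (WT) and 6.51 (mutant) in culture. Its differences of 0.37 ± 0.20 in tissue (adjusted p = 0.24) and 0.47 ± 0.19 across both preparations (adjusted p = 0.34) did not pass. Cdh6, expressed in restricted territories of the developing forebrain, read 4.81 in the WT and 5.36 and 6.04 in the mutant tissue arrays, against 6.09 (WT) and 6.93 (mutant) in culture. The mutant tissue arrays differed by 0.68 between themselves, and the difference from WT of 0.88 ± 0.40 did not pass (adjusted p = 0.17).

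Of the 3 Celsr genes, Celsr2 rose in mutant tissue. It read 6.98 in the WT and 7.94 and 7.54 in the mutant tissue arrays, against 6.87 (WT) and 7.05 (mutant) in culture, a rise in tissue of 0.76 ± 0.20 (1.69-fold, adjusted p = 0.022). Its other probe set differed by 0.48 (adjusted p = 0.29). Celsr3, needed for forebrain axon tracts and interneuron migration, read 7.86 in the WT and 7.74 and 7.91 in the mutant tissue arrays, and its difference was −0.03 ± 0.16 (adjusted p = 0.92). Celsr1, expressed in ventricular zone progenitors, read 6.38 in the WT and 6.19 and 5.92 in the mutant tissue arrays (−0.32 ± 0.28, adjusted p = 0.48).

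The clustered protocadherins were represented by the 22 genes of the beta cluster and Pcdhgc4. Of these 23 genes 10 were tested, all of the beta cluster, and 0 passed for genotype in tissue or across both preparations. Over all tested genes 8.59% were higher and 6.70% lower in tissue, and 0.814% higher and 0.253% lower across both. With 10 genes, a count of 0 is thus near these shares. At an unadjusted p under 0.05, 1 was higher and 0 lower in tissue, and 0 and 0 across both. Of all 11063 tested genes, 1754 and 1455 were so in tissue, and 907 and 536 across both. In tissue 8 of the 10 lay above 0 (median 0.22, from −0.23 to 1.02), and in culture 8 of the 10 lay below 0 (median −0.30, from −0.46 to 0.11). The tissue values share a single WT array, and the culture values a single WT and a single mutant array. Neither these signs nor the difference between the classes was tested. Pcdhb17 read 6.69 in the WT and 6.87 and 7.02 in the mutant tissue arrays, against 6.99 (WT) and 6.61 (mutant) in culture. Pcdhb9 read 6.22 in the WT and 6.72 and 6.77 in the mutant tissue arrays, against 7.11 (WT) and 6.75 (mutant) in culture, and its tissue difference was 0.52 ± 0.23 (adjusted p = 0.16). Beta cluster genes are close paralogs, so a probe set may also detect a neighbour and these 10 values are not independent. The 6 probe sets shared by several alpha cluster genes were left out by the rule.

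Within the model over 5 arrays, more members passed for preparation than for genotype, and the same held over all tested genes. The median difference of the members was 0.23 log2 for each. For genotype, 2 of 30 members were higher and 0 lower, against 0.814% and 0.253% of all tested genes. For preparation, 8 of 30 members were higher and 3 lower in culture, against 19.6% and 19.2% of all tested genes. The members' shares were 26.7% and 10.0%, and their median was 0.23 log2. Cdh11 rose in culture by 1.53 ± 0.14 (2.89-fold, adjusted p = 0.00018), by 1.86 between the WT arrays and by 1.28 between the mutant ones, and this call was kept in all 7 alternatives. Its other probe set rose by 0.90. Pcdh7, NF-protocadherin, known from retinal axons, read 5.98 in the WT and 6.29 and 6.93 in the mutant tissue arrays, against 7.69 (WT) and 7.54 (mutant) in culture, a rise of 1.27 ± 0.26 (adjusted p = 0.0071). Cdh6 rose by 1.25 ± 0.29 (adjusted p = 0.011), although its second probe set differed by 0.73 (adjusted p = 0.15), and by 0.02 between genotypes in tissue. Celsr1 rose by 1.12 ± 0.23 (adjusted p = 0.0066), with 5.92 to 6.38 in the tissue arrays and 7.10 and 7.47 in the culture arrays. Cdh13, the membrane-anchored T-cadherin without a cytoplasmic tail, read 5.61 in the WT and 5.72 and 6.24 in the mutant tissue arrays, against 6.57 (WT) and 6.79 (mutant) in culture. It rose in culture by 0.87 ± 0.25 (adjusted p = 0.025), and its other probe sets differed by 0.93 and 0.46 (adjusted p = 0.017 and 0.36). Cdh4 rose by 0.80 ± 0.18 (adjusted p = 0.010) and Cdh2 by 0.44 ± 0.09 (adjusted p = 0.0061). Pcdhb20, of the clustered genes, read 6.02 in the WT and 6.13 and 6.17 in the mutant tissue arrays, against 6.87 (WT) and 6.83 (mutant) in culture. Its culture arrays lay above all tissue arrays, and it rose by 0.75 ± 0.20 (adjusted p = 0.019).

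Among the falls, Cdh22, a type II cadherin of brain also called PB-cadherin, read 6.52 in the WT and 6.46 and 6.68 in the mutant tissue arrays, against 5.46 (WT) and 5.49 (mutant) in culture. Tissue and culture arrays did not overlap, and the fall was 1.07 ± 0.22 (2.11-fold, adjusted p = 0.0071). Celsr3 fell by 0.83 ± 0.17 (1.78-fold, adjusted p = 0.0064), to 6.78 in WT and 7.18 in mutant culture. Cdh8 fell by 0.71 ± 0.19 (adjusted p = 0.019), and its other probe set differed by −0.39 (adjusted p = 0.32). Type II cadherins thus changed in both directions, with 2 higher and 2 lower of 6. The calls of Cdh8, Cdh13 and Pcdhb20 were lost without either mutant tissue array, those of Cdh8 and Cdh13 also with averaged probe sets and that of Cdh2 without the intensity trend. With dim genes tested, the call of Cdh11 alone among the 11 was kept.

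**Figure D4:**
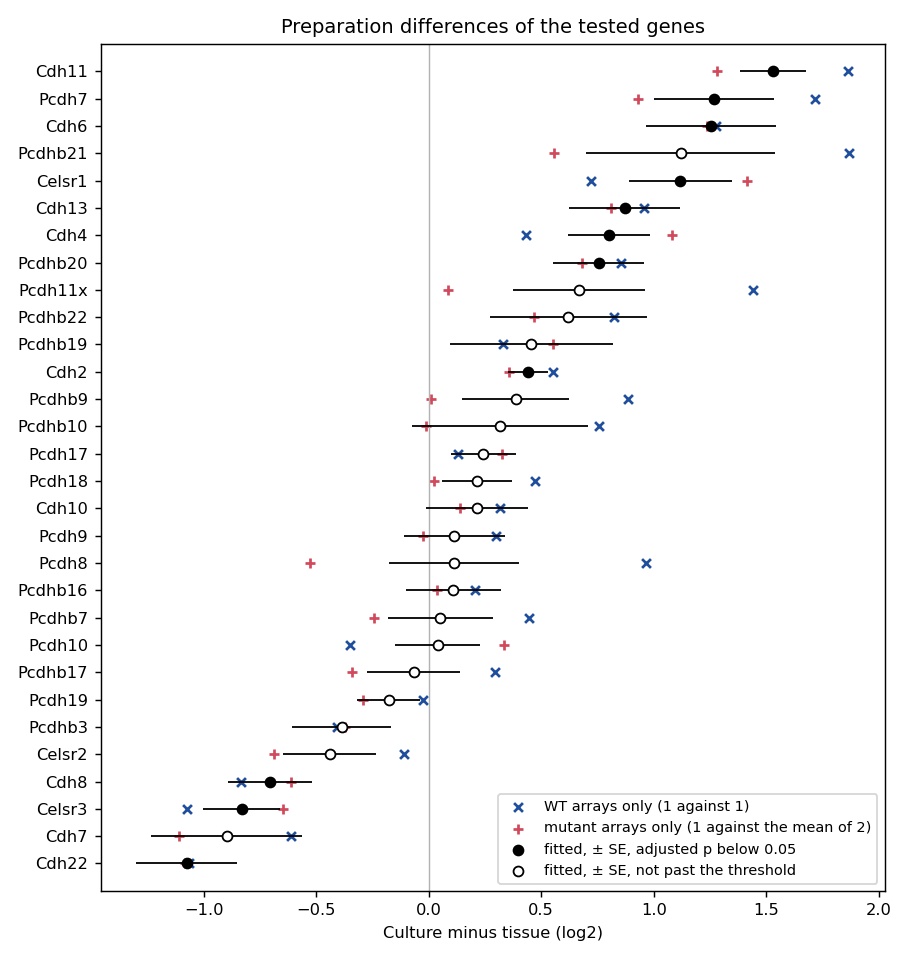
Culture minus tissue difference (log2, x axis) of the 30 tested members: circles are the fitted value with ± SE over 5 arrays, filled where the adjusted p was below 0.05, crosses the WT arrays alone and plus signs the mutant arrays alone. Cdh11 is highest at 1.53 and Cdh22 lowest at −1.07, and for Pcdh8 the WT (0.97) and mutant (−0.53) differences lie on opposite sides of 0.

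Genes that work with the cadherins were counted in fixed lists. Over all tested genes, 8.59% were higher and 6.70% lower in mutant tissue, and 19.6% higher and 19.2% lower in culture than in tissue. Of 16 tested catenins and adherens junction partners, 3 rose in mutant tissue and 0 fell, with a list median of 0.03. Ctnnd2, delta-catenin of neurons, rose by 1.15 ± 0.14 (7.44 in WT tissue, 8.55 and 8.64 in mutant tissue, adjusted p = 0.00018) and Ctnna2, the neural alpha-catenin, by 0.56 ± 0.11 (adjusted p = 0.0052). The ubiquitous Ctnna1 and Ctnnb1, alpha-E-catenin and beta-catenin, differed in tissue by 0.04 (adjusted p = 0.83) and 0.13 (adjusted p = 0.19). In culture 6 of the 16 were higher and 3 lower, led by the focal adhesion and junction protein gene Vcl (2.28 ± 0.14) and the alpha-catenin-like gene Ctnnal1 (3.16 ± 0.25). Of 7 other cadherin superfamily genes tested, 2 rose in mutant tissue: the calsyntenin gene Clstn2, from 5.66 to 7.49 and 7.64 (1.91 ± 0.21, adjusted p = 8.3e-05), and the giant cadherin gene Fat4 by 0.59 (adjusted p = 0.029). Of 10 planar polarity genes, Fjx1 (0.92, adjusted p = 0.0040) and Vangl2 (0.39, adjusted p = 0.048) rose and Dvl2 fell by 0.73 (adjusted p = 0.041) in tissue. Of 11 protocadherin partners and genes of promoter choice, 2 rose in tissue, Wasf1 (0.58, adjusted p = 0.0015) and Nckap1 (0.38, adjusted p = 0.011), both subunits of the actin-regulating WAVE complex. In that list 7 were lower in culture and 0 higher, Ctcf, Rad21, Smc1a and Smc3 among them, which encode the insulator protein and cohesin subunits. Of the 2 tested repressors of Cdh1, Zeb1 rose by 0.35 (adjusted p = 0.032) and Zeb2 fell by 1.13 (adjusted p = 0.00018) in tissue. Cdh1 itself, E-cadherin, was too dim to be tested. Across both preparations 0 genes of the first 4 lists passed (limma), where 0.814% of all tested genes were higher and 0.253% lower. At an unadjusted p under 0.05, 3, 2, 2 and 3 were higher and 0, 0, 1 and 0 lower. Of all 11063 tested genes, 907 were higher and 536 lower at that unadjusted threshold. Of the repressors, Zeb2 passed and fell.

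The 28 members that were not tested had mean log2 levels from 2.36, the floor, to 4.79, and 2 of them, Cdh18 and Cdh19, lay at the floor in every array. The nearest members on each side of the filter were Pcdhb10 (mean 4.85) and Pcdh20 (mean 4.79). Cdh3, P-cadherin, read 4.36 in the WT and 5.58 and 5.39 in the mutant tissue arrays, against 2.41 (WT) and 3.09 (mutant) in culture. Cdh23, a cadherin of hair-cell tip links, read 2.55 in the WT and 5.04 and 4.57 in the mutant tissue arrays, against 4.62 (WT) and 4.80 (mutant) in culture. Cdh16, a kidney cadherin, read 3.29 in the WT and 4.82 and 3.98 in the mutant tissue arrays, against 4.67 (WT) and 3.87 (mutant) in culture. Pcdh20, just under the filter, read 5.96 in the WT and 4.42 and 4.86 in the mutant tissue arrays, against 4.49 (WT) and 4.22 (mutant) in culture. With a pseudocount in place of the floor it passed the filter and fell in mutant tissue, by 0.93 (limma, adjusted p = 0.045). With the floor in place these 28 members received no test.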

How the data were processed

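RNA of 5 samples was measured on Affymetrix mouse arrays with 45101 probe sets. The deposited values are intensity on a linear scale, 1 for each probe set. From the values, the mean without the top and bottom 2% of probe sets was 150.0 in every array. Which software made them is not stated in the labels. Array medians ranged over 0.183 log2, so the arrays were quantile normalized, a floor was placed at the 20th percentile of the pooled values (5.15), and log2 followed. Platform annotation supplied with the series named the genes. Models were fitted in limma 3.58.1 (R 4.3.3), whose variance prior followed intensity, with Benjamini-Hochberg adjustment over 11063 genes, threshold 0.05: genotype in 3 tissue arrays (1 residual degree of freedom), genotype and preparation in an additive model of 5 arrays, and the interaction in a model of the 4 groups. Culture arrays, 1 against 1, received no test. The fits were tested on simulated data.

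Full values were given for members past any threshold, those at least 2-fold apart in culture and the 3 brightest of each class; other members named, and partners past a threshold, were chosen after their values were seen. The members and lists were chosen with earlier results of these data known. Settings varied were the scaling, floor, filter, probe set choice, variance trend, model and the mutant tissue arrays; testing each probe set on its own was added after seeing the data. The number of arrays limits the precision.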

Additional observations from a re-analysis of the deposited data

Results flagged for a closer look

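Among the 30 tested members and the partner lists, with 16, 7, 10, 11 and 2 tested genes, 5 passed limma's interaction test. Of the 5, Rad21 was higher and the others lower, where 2.21% of all tested genes were higher and 2.27% lower. For these the difference between mutant and WT in culture was unlike that in tissue. The culture difference minus the tissue difference was −1.49 log2 for Pcdh8 (adjusted p = 0.0042), −1.35 for Pcdh11x (adjusted p = 0.045), −1.34 for the calsyntenin gene Clstn2 (adjusted p = 0.046) and −1.02 for the Cdh1 repressor Zeb2 (adjusted p = 0.037). For the cohesin gene Rad21 it was 0.62 (adjusted p = 0.021). Of these 5, Pcdh11x and Clstn2 were higher in mutant in both preparations, and Pcdh8 and Zeb2 lower in both. Rad21 differed by −0.25 in tissue (adjusted p = 0.052) and by 0.38 in culture. All 5 tests rest on 1 array each of WT tissue, WT culture and mutant culture.

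Cdh16, too dim for the filter, was higher in both mutant tissue arrays than in WT tissue and lower in mutant than in WT culture. The differences were 1.11 and −0.80, which are −1.91 apart, and this was not tested.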

How the results depend on the processing

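Of the 30 members, 7 rose in tissue, against 1, which fell, with dim genes also tested, 2 with probe sets averaged and 0 without the intensity trend. With a pseudocount 7 rose and Pcdh20 fell (−0.93, limma, adjusted p = 0.045), and the deposited scaling added Cdh4 (0.61, adjusted p = 0.020). Across both preparations the main count of 2 became 4 with the deposited scaling and with a pseudocount, and 0 with dim genes tested, averaged probe sets or no trend. Without one or the other mutant tissue array it was 0 and 0, from a lowest of 0 to a highest of 0. The 11 preparation calls became 4 with dim genes tested, and 8 without either array. Those 4 were Cdh11 and the genes Cdh3, Pcdh12 and Pcdhb14, the latter too dim for the main filter. The 2 interaction calls, Pcdh8 and Pcdh11x, were both lost with dim genes tested, with averaged probe sets and with no trend. With dim genes tested 3 others passed, all of the opposite sign and too dim for the main filter. They were Pcdhb2 (1.91), Pcdhb1 (0.74) and Pcdhb18 (0.69). With averaged probe sets and with no trend the count was 0. The 2 members at least 2-fold apart in culture became 10 with dim genes counted. With averaged probe sets the preparation difference of Fzd3 turned from −0.60 to 0.33 (limma, adjusted p = 0.23) and that of Smchd1 from −0.57 to 0.51 (adjusted p = 0.094). Of the other values of single genes under alternatives, 1476 kept their direction and call or moved by less than the replicate spread, 159 lost the call, 14 gained one and 53 without a test moved by more. The cause was not tested, other than that testing dim genes raised the number of genes from 11063 to 18193. Leaving out a mutant tissue array left no residual degree of freedom in the tissue and interaction models. No paired analysis was possible because only mutant tissue has a second array. Precision is limited by the number of arrays and, in dim members, by signals near the floor.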

Other observations

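Along the chromosome, in the order of the RefSeq annotation, the 22 genes of the beta protocadherin cluster run from Pcdhb1 to Pcdhb22. The tested ones were Pcdhb3, Pcdhb7, Pcdhb9, Pcdhb10, Pcdhb16, Pcdhb17, Pcdhb19, Pcdhb20, Pcdhb21 and Pcdhb22, so of the last 7 genes of the cluster, Pcdhb18 alone lay below the brightness filter. Brightness depends on each probe set, and the levels of different genes were not compared.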
